A study of Mus musculus with 4 samples.

Results

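HSC-like cells were picked out of c-Kit+ Sca-1+ mouse bone marrow cells (KLS cells, the sorted fraction that holds blood stem cells and multipotent progenitors) by transcripts of 3 stem cell genes. A cell counted as HSC-like when it held at least 1 UMI (a tag that marks 1 captured transcript) each of Hlf, Mecom and Procr, no UMI of Dntt or Pf4, and under 0.4% of its UMIs from Mpo, Elane, Prtn3 and Ctsg together. Hlf and Mecom encode transcription factors of stem cells, and Procr encodes their surface receptor EPCR. Dntt marks lymphoid priming, Pf4 marks megakaryocytes and platelets, and the last 4 genes encode granule enzymes of granulocyte and monocyte precursors. The rule found 506 cells among 10351 filtered KLS cells, of 12355 barcodes in the whole series. Since counts of these 9 genes chose the cells, the levels of those genes are given as a description only, and the name HSC-like rests on no more than this rule.

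Hematopoietic stem cells sit at the top of blood formation. They are mostly quiescent, keep themselves through self-renewal and give rise to multipotent progenitors that divide more and carry lineage priming. STAT5A and STAT5B are transcription factors that Janus kinases switch on below the receptors of cytokines such as thrombopoietin, stem cell factor and interleukin 3, and their best known target genes, Cish, Socs2 and Pim1 among them, include feedback inhibitors of the same pathway. Surface SLAMF1 (CD150) with no CD48 and no FLT3 is the classical stem cell phenotype, and von Willebrand factor (Vwf) marks stem cells with a platelet and megakaryocyte bias.

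The series held 4 droplet libraries of version 3 of the 3' chemistry, 1 for each of 4 groups, and both KLS libraries were used here. The STAT5 KO library came from Vav1-Cre/+ STAT5ab fl/fl mice, in which a Cre recombinase active in blood cells removes the paired genes Stat5a and Stat5b. The control came from Vav1-Cre/+ STAT5ab +/+ mice, so both groups carried the Cre transgene. Mice were 8 to 12 weeks old, marrow was depleted of lineage-positive cells and sorted for c-Kit and Sca-1, and the labels name 4 mice without saying whether per group, whose cells cannot be separated. With 1 library per group no test of the genotype was possible: every difference below compares these 2 libraries, and the 95% intervals, exact Poisson for levels and exact binomial for ratios and shares, cover counting error only.

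Before any comparison, barcodes found also in a stromal (MSC) library of the series were removed, 382 from the control and 284 from the KO library. The 2 KLS libraries shared 290 barcodes, of which 11 control and 10 KO cells passed the filters and 0 and 1 cells were HSC-like. Filtered control cells were deeper, and so were their HSC-like cells, with a median of 10964 UMIs (3674 to 57758) against 9197 (3690 to 35538). Summed, the HSC-like cells held 3751598 control and 2565404 KO UMIs, and levels are given as CPM, UMIs per 1000000 UMIs of that sum. A summed level can differ because more cells carry a transcript or because each carries more of it. Mitochondrial transcripts made up 4.66% of the control sum and 3.18% of the KO sum, against 4.36% and 2.94% in the other KLS cells.

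The control held 267 HSC-like cells among 3193 (8.36%, 7.42 to 9.38) and the KO library held 239 among 7158 (3.34%, 2.93 to 3.78). Depth enters this share, since a deeper cell more easily shows a UMI of all 3 stem genes. With every cell thinned to 4900 UMIs before the rule was applied, the shares were 3.77% (119 of 3160) and 1.77% (110 of 6210), so the lower KO share remained at equal depth, with 33 and 948 cells too shallow to enter. All 3 stem genes were found in 542 control cells, of which 275 were set aside (187 with Dntt, 110 with Pf4 and 8 over the granule limit, some for more than 1 reason). In the KO library 194 of 433 such cells were set aside, 156 with Dntt, 51 with Pf4 and 9 over the limit.

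The cells lay close to the edge of the rule on Procr and not on Hlf. Exactly 1 Procr UMI was present in 168 control (62.9%) and 161 KO HSC-like cells (67.4%), against 97 (36.3%) and 96 (40.2%) for Mecom and 18 (6.74%) and 34 (14.2%) for Hlf. Outside the rule stood 568 control and 868 KO cells with 2 of the 3 stem genes and no sign of priming. The granule limit mattered for few cells, with 2 control and 8 KO cells just inside it at 0.3% to 0.4% and 3 and 0 cells with all else met just outside, at up to 0.5%. Summed Hlf stood at 539 CPM in control and 392 in KO HSC-like cells, Mecom at 174 and 198, and Procr at 111 and 136.

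Stem cell genes that the rule did not use were higher in HSC-like cells than in the other KLS cells of the same library. Of the 33 stem cell genes listed, 26 had at least 100 UMIs over both libraries and entered the comparison. Among them, 13 stood at least 1.5-fold higher in control HSC-like cells (median log2 ratio 0.60) and 23 in KO HSC-like cells (median 1.08), beside 1.62% and 3.61% of all 7677 genes tested; 1.5-fold was counted on the scale of log2(CPM + 10). Genes of multipotent progenitors leaned the other way, with 6 of 11 at least 1.5-fold lower in control HSC-like cells (median -0.66, background 0.365%) and 5 of 11 in KO (median -0.52, background 0.651%). Megakaryocyte genes, also known from platelet-biased stem cells, had 2 of 11 higher in control (median 0.26) and 6 of 11 in KO (median 0.79).

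Across all genes, 108 (1.41%) were at least 1.5-fold higher and 20 (0.261%) at least 1.5-fold lower in HSC-like than in other KLS cells in both libraries. Mllt3, a chromatin reader that maintains human stem cells, stood at 97.0 CPM in control and 125 in KO HSC-like cells against 36.5 and 32.0 in the other cells. Cdkn1c, the cell cycle inhibitor p57 of quiescent stem cells, stood at 34.1 and 26.9 against 10.1 and 5.52. Both genes were thus higher in HSC-like than in other KLS cells of either library.

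Further genes high in both libraries came from several functions. Sult1a1, a sulfotransferase, stood at 19.2 and 24.2 CPM against 2.30 and 1.64 in the other cells. Tgm2, a transglutaminase, stood at 37.1 and 61.6 against 9.15 and 10.2. Mycn, a MYC family transcription factor, stood at 101 and 175 against 47.0 and 35.8. The immediate early transcription factor Egr1 stood at 136 and 158 against 57.6 and 51.5. Among the genes low in HSC-like cells were Satb1, a chromatin organiser of lymphoid priming (79.7 and 66.7 against 179.8 and 170.1 CPM), Notch1, the receptor of T lineage commitment (32.3 and 29.6 against 68.6 and 59.5), and Plac8 (505 and 484 against 977 and 925). These genes were picked for their difference between the 2 sets of cells. The rule also bars cells with Dntt, which made up 52.8% of the other control and 56.1% of the other KO cells. The patterns therefore describe the chosen cells and do not test the label. Differences among the KO cells are described further on.

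The defining markers of other cell types were at or near 0 in HSC-like cells. Stromal markers summed to 2.13 CPM in control and 7.41 in KO cells, with 6 of 10 at 0 in each library, and T cell markers to 2.13 and 1.17, with 6 of 8 at 0. Macrophage markers summed to 28.5 and 21.8 CPM. The endothelial list summed to 101 and 204 CPM, but it holds Vwf, Pecam1 and Emcn, which stem cells also carry, while the sinusoidal markers Stab1 and Stab2 were at 0 in both. The B and plasma cell list (66.1 and 65.5 CPM) was almost all Xbp1, with Jchain, Ms4a1, Pax5 and Ebf1 at 0.

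The targeted genes were checked first. Stat5a (GRCm38 chr11:100859351-100885169, plus strand) stood at 81.0 CPM in control and 28.5 in KO HSC-like cells, and its neighbour Stat5b (chr11:100780731-100850724, minus strand) at 66.6 and 18.7. In the other KLS cells the same genes went from 67.2 to 6.13 and from 60.3 to 4.05 CPM. The sum of both genes in HSC-like cells was 148 CPM in control (554 UMIs, 136 to 161) and 47.2 in KO (121 UMIs, 39.1 to 56.4), so 31.9% of the control level remained (26.0% to 38.9%), against 7.99% (7.42% to 8.59%) in the other KLS cells. These intervals do not overlap. HSC-like cells therefore kept a larger share of Stat5 transcripts than the rest of the KO library, though which part of the transcript these 3' counts cover was not given in the sources used here, and a transcript that lost internal exons could still be counted.

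The remaining share was graded by cell class within the KO library. Cells with Dntt kept 3.66% of their control level of Stat5a plus Stat5b, and cells rich in granule genes kept 5.58%. Unprimed cells kept 15.2% with 2 stem genes, 9.91% with 1 and 11.9% with none, and cells with Pf4 kept 17.1%. At 31.9%, the HSC-like cells kept the most of the 7 classes.

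**Figure D1:**
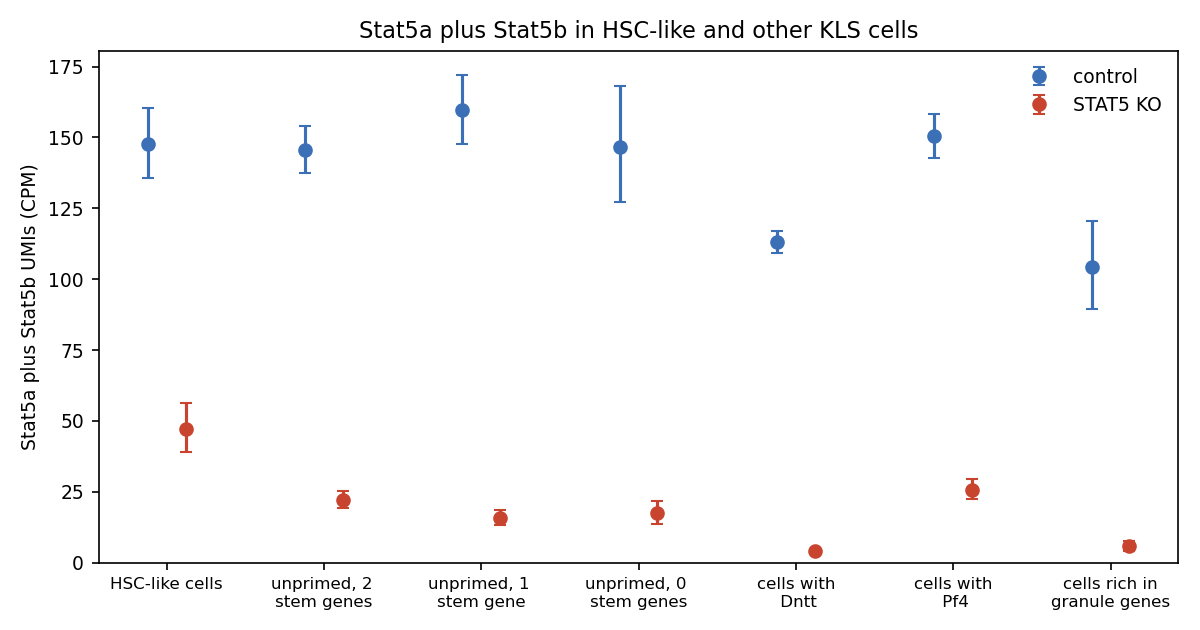
Summed level of Stat5a plus Stat5b in CPM (vertical axis) in 7 classes of filtered KLS cells, control in blue and STAT5 KO in red; points are levels and lines are exact Poisson 95% intervals for counting error. The KO level is highest in HSC-like cells, at 47.2 against 148 in control; over all other KLS cells, not drawn, the levels were 10.2 and 127.5.

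Fewer KO than control HSC-like cells held a detected transcript of either gene. At such low counts a cell without a UMI may still express them, so these shares alone do not show a separate subset. A UMI of Stat5a or Stat5b was present in 204 of 267 control (76.4%) and 70 of 239 KO HSC-like cells (29.3%). With each cell thinned to 5800 UMIs, which 258 control and 198 KO HSC-like cells reached, the shares were 51.9% and 24.2%, whereas other KLS cells gave 51.4% and 4.38%, and cells with Dntt 46.8% and 1.57%. Taken alone, the 70 KO cells with a Stat5 UMI carried 179 CPM of both genes against 173 in the control cells with one. A group chosen for holding a transcript must be high in it, so this pair of values shows only that both chosen groups were alike in level.

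Between libraries, 60 of 7677 genes (0.782%) were at least 1.5-fold higher and 62 (0.808%) at least 1.5-fold lower in KO than in control HSC-like cells, against 26 (0.339%) and 39 (0.508%) in the other KLS cells. Of the 60 higher genes, 20 passed 1.5-fold the same way in the other KLS cells, 30 leaned the same way below that size and 10 leaned the other way. Of the 62 lower genes, 23 passed it in the other KLS cells as well and 39 leaned the same way. Without the 70 KO cells that held a Stat5 UMI, 36 of the 60 and 50 of the 62 still passed 1.5-fold. With cells holding a Stat5 UMI left out of both libraries, which leaves 63 control cells, 29 of the 60 still passed and 11 lay on the other side of 0, and 43 of the 62 still passed with 4 on the other side.

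**Figure D2:**
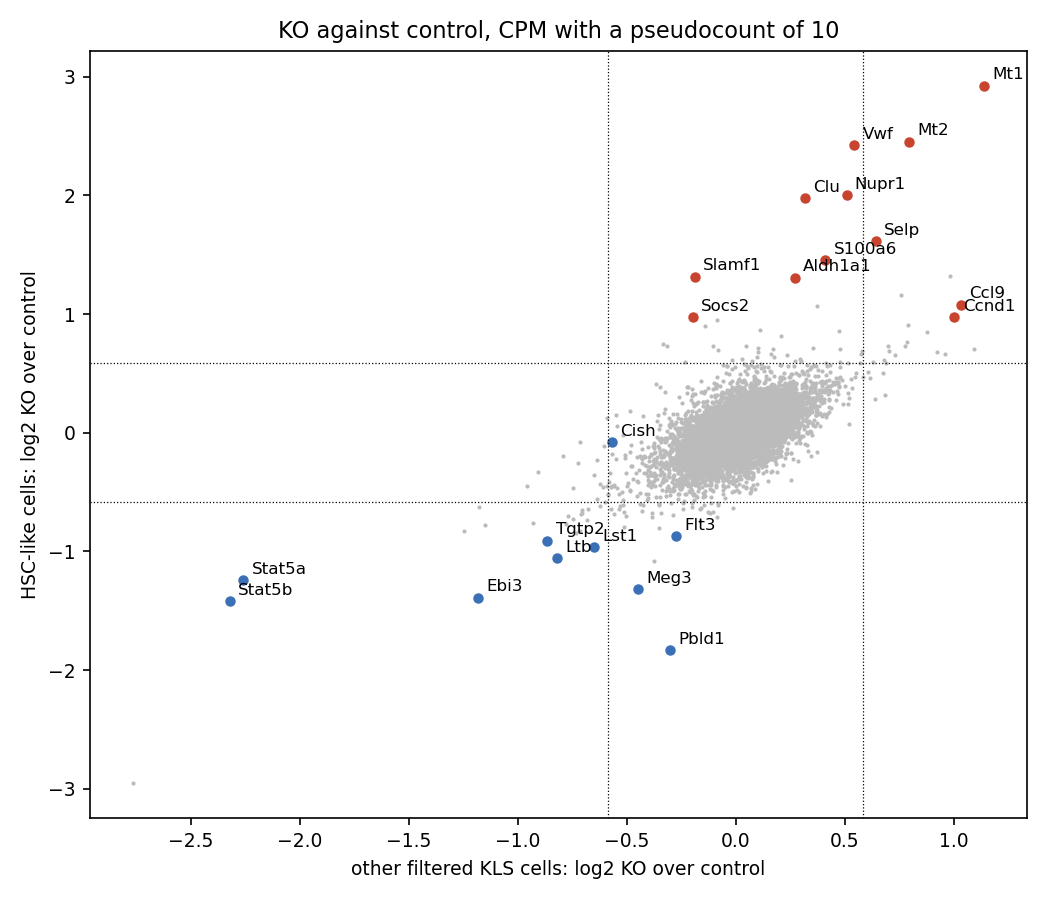
Each point is a gene with at least 100 UMIs; the horizontal axis is the log2 ratio of KO over control (10 CPM added to each level) in other KLS cells and the vertical axis the same in HSC-like cells, with dotted lines at 1.5-fold. Vwf, Slamf1 and Socs2 lie high on the vertical axis, Slamf1 and Socs2 with a ratio below 0 on the horizontal one, while Ebi3 lies low on both.

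Among the named higher genes were markers of platelet-biased and of classical stem cells. Vwf (chr6:125546774-125686679, plus strand) stood at 12.8 CPM in control (48 UMIs in 30 cells) and 112 in KO HSC-like cells (288 UMIs in 83 cells), a log2 ratio of 3.13 (2.69 to 3.61), against 6.85 and 14.6 CPM in the other KLS cells. Slamf1, which encodes CD150 (chr1:171767127-171801184, plus strand), stood at 10.9 CPM (41 UMIs in 32 cells) and 42.1 (108 UMIs in 56 cells), a log2 ratio of 1.95 (1.41 to 2.50), while the other KLS cells gave 8.30 and 6.07. Clu, the secreted chaperone clusterin, stood at 7.20 and 57.7 CPM (95% interval of the log2 ratio 2.40 to 3.65). All 3 genes were higher in KO HSC-like cells by more than counting error, and only Slamf1 of the 3 was lower in the other KLS cells of the KO library.

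Other genes of the same group followed. Selp, the adhesion receptor P-selectin of platelets and endothelium, stood at 16.3 and 70.6 CPM (log2 ratio 2.12, 1.69 to 2.56), and Cavin2, a caveola coat protein of platelets, at 12.3 and 36.6. Nupr1, a stress-induced nuclear protein, stood at 8.26 and 63.1 CPM (2.93, 2.37 to 3.54). Aldh1a1, an aldehyde dehydrogenase that makes retinoic acid, stood at 17.1 and 56.9. S100a6, a calcium-binding protein, stood at 37.3 and 119.7 CPM. Each was also higher in the other KLS cells of the KO library but by less, for instance 3.01 and 8.51 CPM for Nupr1 and 24.2 and 35.5 for S100a6.

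The Vwf difference fell along the classes. In KO against control, Vwf stood at 30.5 against 10.3 CPM in unprimed cells with 2 stem genes, 15.2 against 5.68 with 1 stem gene, and 6.30 against 2.93 in cells with Dntt. Cells with Pf4, a class that includes platelet-primed cells, had 62.4 against 20.1 CPM. Slamf1 behaved otherwise, at 13.4 against 8.11 CPM with 2 stem genes but 8.63 against 18.2 with 1. The higher level of Vwf in KO was thus found in every class named here, and that of Slamf1 was not.

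At equal depth more KO cells held Vwf, and those that did held more of it. Thinned to 5800 UMIs, a Vwf UMI was present in 18 control (6.98%, 4.19% to 10.8%) and 62 KO HSC-like cells (31.3%, 24.9% to 38.3%). The shares were 11.2% and 34.7% unthinned. Thinned to 3000 UMIs, which all 267 control and 239 KO cells reached, they were 4.87% and 22.2%. Cells with Dntt, which should lack Vwf, gave 1.38% and 2.05% at 5800 UMIs. Of the 62 KO cells, 18 held 1 Vwf UMI, 19 held 2 and 25 held at least 3; of the 18 control cells, 14 held 1, 3 held 2 and 1 held more. Cells with Slamf1 and without Cd48 and Flt3, the transcript form of the classical stem cell phenotype, made up 8 of 258 control and 32 of 198 KO HSC-like cells. Choosing the cells differently moved the sizes: with 10 CPM added, the log2 ratio of Vwf was 2.42 as reported, 2.28 with the rule applied to thinned cells and 1.47 where 2 of the 3 stem genes sufficed, and that of Slamf1 was 1.32, 1.18 and 0.64.

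The metallothioneins, small metal-binding proteins induced by zinc, glucocorticoids and stress, had the highest ratios among the named genes. Mt1 stood at 9.60 CPM in control (36 UMIs in 23 cells) and 139 in KO HSC-like cells (356 UMIs in 78 cells), a log2 ratio of 3.85 (3.36 to 4.39), although 30.6% of the control UMIs came from 1 cell. Mt2 was found in control as 3 UMIs of 1 cell and in KO as 126 UMIs in 46 cells (49.1 CPM), a log2 ratio of 5.94 (4.36 to 8.24). In the other KLS cells Mt1 went from 19.9 to 55.9 CPM and Mt2 from 6.20 to 18.1, so both genes were higher in the whole KO library and more so in HSC-like cells. Thinned to 5800 UMIs, 10 control (3.88%) and 60 KO HSC-like cells (30.3%) held an Mt1 UMI, against 2.69% and 6.26% of cells with Dntt.

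Since Mt1 and Mt2 are neighbours that moved together, their promoters are shown, from 250 bases before the RefSeq start to 30 from the start on (GRCm38.p6, plus strand, chr8:94178839-94179118 for Mt1 and chr8:94172368-94172647 for Mt2). Capitals mark the letters of the metal response element core, searched as TGCACNC or TGCGCNC on both strands; 3 matches lay in Mt1 and 4 in Mt2, of which the 2 on the reverse strand read GTGTGCA and GTGCGCA here. At least 3 matches were found in 1.97% of 32851 RefSeq promoters and at least 4 in 0.517%, searched from 250 bases before to 50 after the start. A match describes the letters and shows no binding.
Mt1: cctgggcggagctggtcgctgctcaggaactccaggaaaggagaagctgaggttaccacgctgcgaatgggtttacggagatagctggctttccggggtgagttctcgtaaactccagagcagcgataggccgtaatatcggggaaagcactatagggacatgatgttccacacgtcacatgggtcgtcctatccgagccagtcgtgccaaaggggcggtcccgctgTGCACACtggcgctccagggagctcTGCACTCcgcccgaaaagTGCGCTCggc
Mt2: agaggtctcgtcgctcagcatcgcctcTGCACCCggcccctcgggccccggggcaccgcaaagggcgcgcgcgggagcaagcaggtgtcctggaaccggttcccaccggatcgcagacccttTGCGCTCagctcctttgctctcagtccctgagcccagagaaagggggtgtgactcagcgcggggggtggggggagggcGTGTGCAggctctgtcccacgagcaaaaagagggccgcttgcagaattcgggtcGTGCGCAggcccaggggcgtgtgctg

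For STAT5 target genes, the side of 0 on which the median fell in KO HSC-like cells depended on the cells compared. Of 18 listed, 12 entered the comparison, and their median log2 ratio was 0.19 beside 0.006 over all genes. Among them 2 (Socs2 and Ccnd1) were at least 1.5-fold higher and none was lower by that much. Of all genes, 0.782% were higher and 0.808% lower. The same list had a median of -0.10 in the other KLS cells. Without KO cells holding a Stat5 UMI the median was 0.10, with 1 higher and 1 lower, beside 0.769% and 1.08% of all genes. With such cells left out of both libraries it was -0.06, with 2 higher and 4 lower. There 9.93% and 5.48% of all 7677 genes were past 1.5-fold higher and lower. Socs2, a cytokine-induced inhibitor of JAK and STAT signalling, stood at 21.9 CPM (82 UMIs in 54 cells) and 52.6 (135 UMIs in 68 cells), a log2 ratio of 1.27 (0.86 to 1.68), while the other KLS cells went from 7.82 to 5.55. Ccnd1, the G1 cyclin D1, stood at 22.1 and 53.0 CPM (1.26, 0.86 to 1.67) and at 22.4 and 55.0 in the other KLS cells. Socs2 therefore stood on opposite sides in the 2 sets of cells and Ccnd1 on the same side. Where 2 of the 3 stem genes sufficed, the ratio of Socs2 with 10 CPM added was 0.35 in place of 0.98, below 1.5-fold.

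Further members of the list stayed under 1.5-fold with 10 CPM added. Cish, the inhibitor most often read as a STAT5 reporter, stood at 29.1 and 26.9 CPM in HSC-like cells but at 12.6 and 5.24 in the other KLS cells, 10.2 and 3.61 in cells with Dntt and 20.3 and 8.39 in cells with Pf4. Pim1, a survival kinase, stood at 257 and 385.5 CPM. Bcl2l1, the survival factor BCL-XL, stood at 20.5 and 14.0, and Mcl1, a related survival factor, at 214 and 213. Of Cish, HSC-like cells in KO kept nearly the control level when summed, which the other classes named here did not. Within them, cells without a Stat5 UMI stood below the 29.1 CPM of control HSC-like cells, as given further on.

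The Cish promoter is shown because it holds the palindrome TTCNNNGAA, the core that STAT proteins bind, in 2 copies at and just after the RefSeq start (GRCm38.p6, chr9:107296409-107296688, plus strand, cut as above, matches in capitals). At least 1 copy lay in 8.30% of all promoters and at least 2 in 0.457%. Of the 12 listed targets with a promoter entry, 3 (Bcl6, Cish and Socs3) held a copy.
Cish: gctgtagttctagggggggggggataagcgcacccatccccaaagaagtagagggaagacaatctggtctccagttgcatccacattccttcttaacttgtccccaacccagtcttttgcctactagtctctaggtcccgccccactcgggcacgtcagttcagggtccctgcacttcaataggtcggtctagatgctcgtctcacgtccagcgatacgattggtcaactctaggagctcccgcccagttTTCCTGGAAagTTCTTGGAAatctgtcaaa

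Among lower genes, Flt3 led those of the progenitor list. Flt3, the receptor of multipotent and lymphoid-primed progenitors (chr5:147330741-147400489, minus strand), stood at 117 CPM in control (440 UMIs in 160 cells) and 59.6 in KO HSC-like cells (153 UMIs in 74 cells), a log2 ratio of -0.98 (-1.25 to -0.71), against 175.5 and 143 in the other KLS cells. Thinned to 5800 UMIs, 101 control (39.1%) and 43 KO HSC-like cells (21.7%) held a Flt3 UMI, below the 72.3% and 64.4% of cells with Dntt. It was the only 1 of 11 tested multipotent progenitor genes that passed 1.5-fold, beside 0.808% of all genes lower. On the scale with 10 CPM added its log2 ratio was -0.87, and -0.43 where 2 of the 3 stem genes sufficed. Cd34 stood at 495 and 363 CPM, Cd48 at 112 and 113, and Cdk6, a G1 kinase of cycling progenitors, at 535 and 632.

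Several lower genes take part in immune signalling. Ebi3, a subunit shared by the cytokines IL-27 and IL-35, stood at 45.8 and 11.3 CPM (-2.02, -2.64 to -1.45) and at 32.5 and 8.76 in the other KLS cells. Ltb, which encodes lymphotoxin beta, stood at 147 and 65.5 CPM, with a UMI in 54.7% of control and 23.7% of KO HSC-like cells at 5800 UMIs. Lst1, a leukocyte transcript, stood at 101 and 47.2 CPM. The interferon-induced GTPase Tgtp2, whose reads may be split with its near-identical copy Tgtp1, stood at 40.2 and 16.8. The lower level of each was shared with the other KLS cells, for example 64.6 and 32.3 CPM for Ltb.

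Meg3, the imprinted noncoding RNA linked to stem cell quiescence, stood at 39.2 CPM in control (36 cells with a UMI) and 9.75 in KO HSC-like cells (6 cells), and 68.0% of the KO UMIs came from 1 cell. At 5800 UMIs a Meg3 UMI was present in 25 control (9.69%) and 3 KO HSC-like cells (1.52%). Pbld1, a phenazine biosynthesis-like protein, stood at 38.1 and 3.51 CPM, but few cells carried it and 37.1% of the control UMIs came from 1 cell. Gm47283, a gene model of chromosome Y, stood at 489 and 54.6 CPM, and at 607 and 80.7 in the other KLS cells. Of the mitochondrial genome, mt-Nd2 stood at 1482 and 821 CPM and mt-Nd3 at 1059 and 594, and the 13 mitochondrial genes tested had a median log2 ratio of -0.52, as against -0.53 in the other KLS cells; this difference followed the library and was not particular to HSC-like cells.

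Some named genes lie near the targeted locus. Dhx40, an RNA helicase (9.33 and 38.2 CPM in HSC-like cells, 10.8 and 31.1 in the others), lies 14.1 Mb from Stat5a on chromosome 11. Ccl9, a chemokine (27.2 and 68.6 CPM, others 69.2 and 152), lies 17.3 Mb away, and Wfdc17, a secreted inhibitor of inflammation (41.6 and 19.1 CPM, others 121 and 45.3), lies 17.2 Mb away. All 3 stood on the same side in HSC-like and other KLS cells, and the part of linked chromosome 11 sequence in these ratios was not tested. The other named genes were Myl10, a myosin light chain (38.7 and 98.6 CPM), Shisa8, a membrane adaptor (51.4 and 19.1), and Gm19590, a gene model (153.5 and 81.9).

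**Figure D3:**
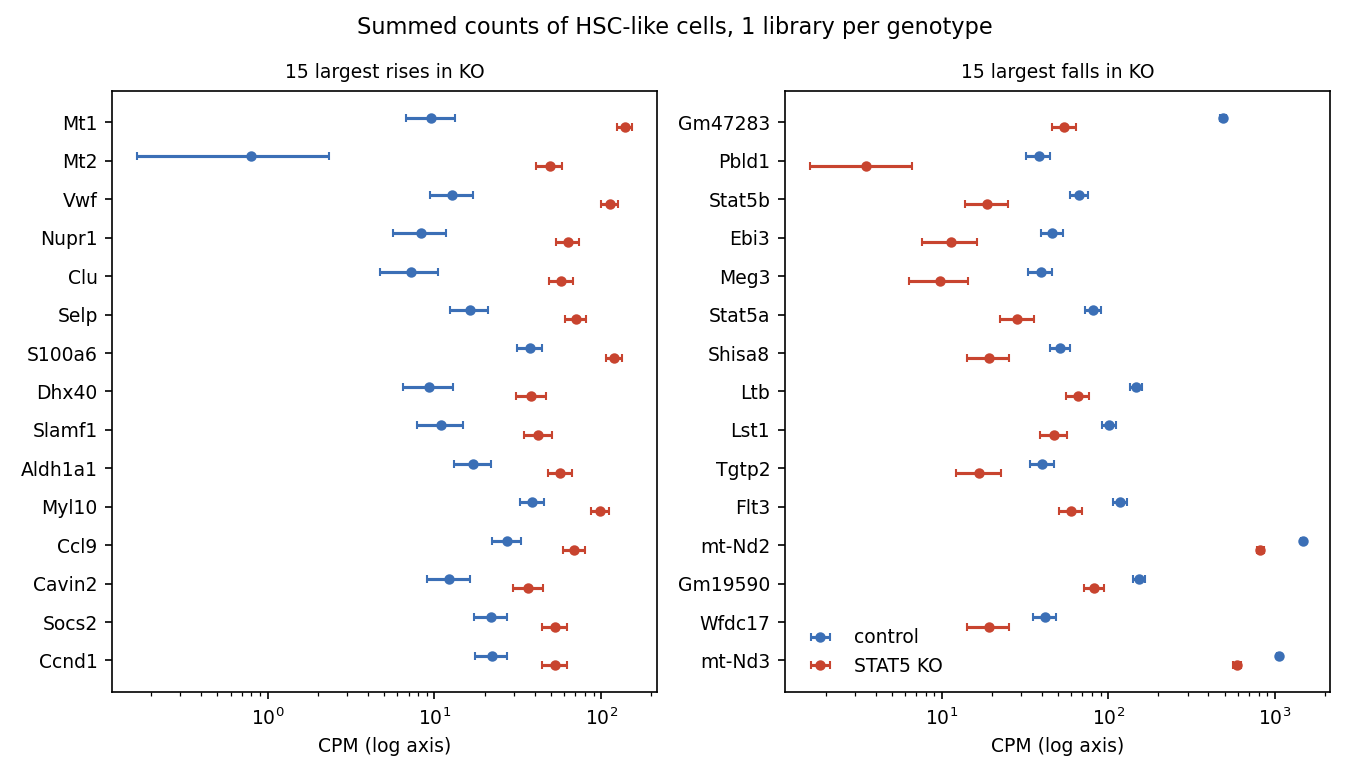
Levels in CPM (log axis) of the 15 named genes with the largest rise and the 15 with the largest fall in KO HSC-like cells, control in blue and STAT5 KO in red, with exact Poisson 95% intervals. Vwf goes from 12.8 to 112 and Mt1 from 9.60 to 139 at the upper end, and Flt3 from 117 to 59.6 among the falls.

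Of the gene lists, most had medians near 0 in HSC-like cells. Stem cell genes outside the rule had a median log2 ratio of 0.11, with Vwf, Slamf1 and Trim47 (53.8 and 97.5 CPM) at least 1.5-fold higher and Ltb lower, 3 and 1 of 26, whereas the same list had a median of -0.21 in the other KLS cells, with none higher and 4 lower. The direction depended on the cells compared. Without KO cells holding a Stat5 UMI the median was -0.13, with 2 higher and 3 lower. With such cells of both libraries left out it was -0.61, with 1 higher and 14 lower. That last comparison held 63 control cells, and all 35 G2 and mitosis genes were at least 1.5-fold higher in it. Of all 7677 genes, 0.782% were higher and 0.808% lower in the main comparison, and 0.339% and 0.508% in the other KLS cells. The shares were 0.769% and 1.08% in the first alternative and 9.93% and 5.48% in the second. Megakaryocyte genes had a median of 0.30, with 3 of 11 higher (Vwf, Selp and Cavin2) and none lower, against 0.03 in the other KLS cells. In the same alternatives its median was 0.09 and -0.05, each with 2 higher and 1 lower. Gng11, a G protein subunit of platelets, stood at 104.5 and 142 CPM and Itga2b, the platelet integrin CD41, at 28.0 and 41.3. Some genes stand in both lists, so these counts share Vwf.

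Signalling and lineage lists showed few genes past 1.5-fold. The shares over all genes, to be read beside each count, were 0.782% higher and 0.808% lower in HSC-like cells. In the other KLS cells they were 0.339% and 0.508%. The 11 tested STATs and Janus kinases had a median of -0.09, with the 2 targeted genes the only ones past it; Stat3 stood at 121.3 and 121 CPM, and Jak2 at 38.1 and 34.7. Of 16 cytokine receptors only Flt3 passed, with a median of -0.19 and Kit at 292 and 251 CPM. The interferon-stimulated list had a median of -0.17, with Irf7 (22.7 and 11.3 CPM), Oasl2 (53.8 and 29.6) and Rtp4 (65.8 and 38.2) lower among 20, and -0.26 in the other KLS cells with 4 lower; with the rule applied to thinned cells the median was 1.273e-04. Of 14 antigen presentation genes, H2-Ab1 (52.5 and 90.8 CPM) and H2-Eb1 (16.5 and 33.9) were higher, beside 0.782% of all genes. The median of this list was 0.05, against 0.10 in the other KLS cells, where 3 of the 14 were higher beside 0.339% of all genes. Lymphoid (median -0.15), myeloid (-0.14) and erythroid genes (-0.08) had at most 1 gene past 1.5-fold each, such as Lsp1, a leukocyte actin regulator, at 122 and 73.7 CPM. Immediate early genes had a median of -0.01, with Fosb (25.1 and 48.3 CPM) higher and Dusp2, a MAP kinase phosphatase (212 and 118), lower among 19, and heat shock and metallothionein genes had a median of 0.25 against 0.39 in the other KLS cells.

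**Figure D4:**
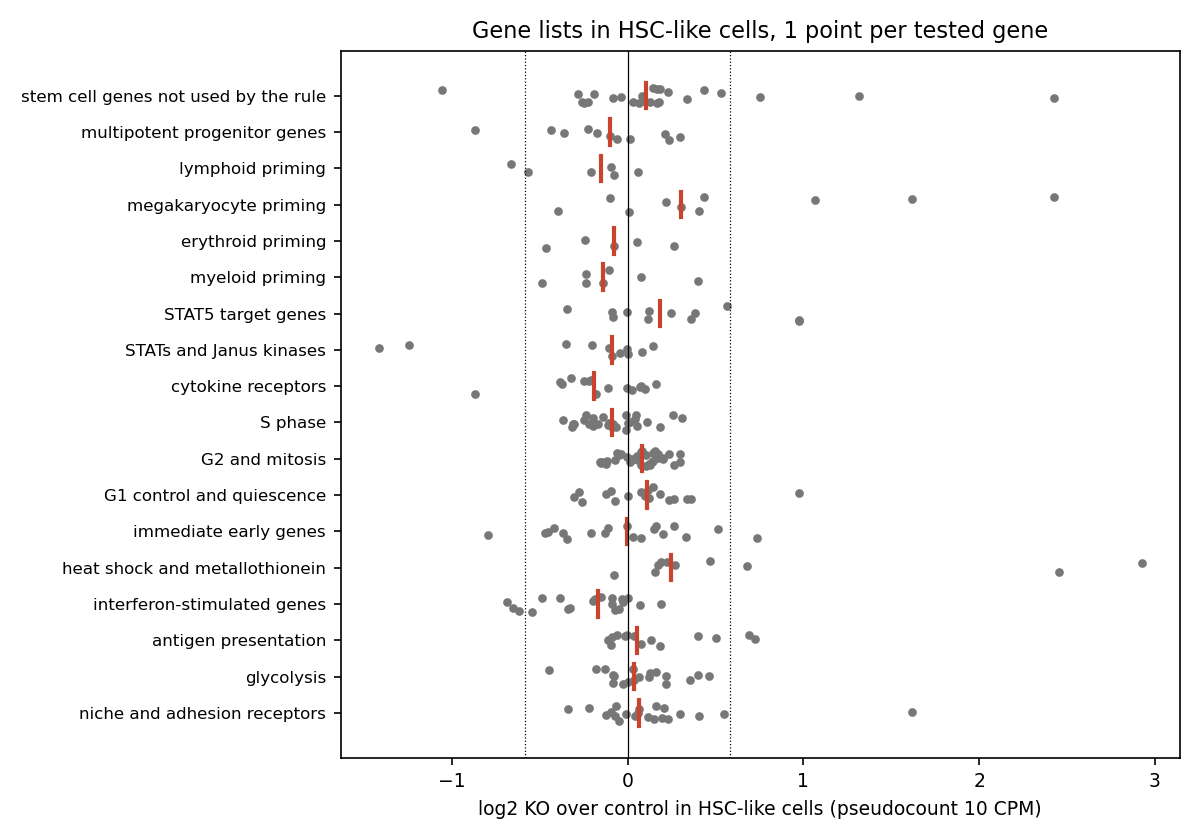
Log2 ratio of KO over control in HSC-like cells (10 CPM added to each level), 1 point per tested gene, grouped by gene list, with the list's median in red and dotted lines at 1.5-fold. The megakaryocyte median stands at 0.30, and those of cell cycle and glycolysis genes lie near 0.

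Cell cycle genes had no member past 1.5-fold among 27 tested genes of S phase (median -0.09) and 35 of G2 and mitosis (0.08), and neither direction held, since where 2 of the 3 stem genes sufficed the S phase median was 0.10 and with the rule applied to thinned cells the other was -0.05. Mki67, the proliferation marker, stood at 299.6 and 332.5 CPM and Top2a, the mitotic topoisomerase, at 474 and 531. The shares of cells with a UMI lay further apart at 5800 UMIs than unthinned. A Mki67 UMI was present in 31.0% of control and 44.9% of KO HSC-like cells at 5800 UMIs (34.8% and 41.0% unthinned). For Top2a the shares were 42.6% and 53.5% (48.7% and 49.8% unthinned). At that depth 9 control and 41 KO HSC-like cells were too shallow to enter. The part of their loss in these shares was not tested. At 5800 UMIs the other KLS cells gave 44.3% and 60.5% for Mki67 and 57.7% and 76.2% for Top2a. Thinned to 5800 UMIs, control HSC-like cells held a median of 4 UMIs of the G2 and mitosis list and KO cells 6, with the 90th percentile at 67.9 and 74.9, and the other KLS cells had medians of 9 and 23. Both sets of HSC-like cells thus held many cells with few of these transcripts and a minority with many.

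Medians of the G2 and mitosis list lay further apart in KO than in control when cells were split by Vwf or by Flt3. The KO cells with a Vwf UMI held a median of 2 UMIs of the G2 and mitosis list (62 cells) and those without one 22 (136 cells). In control the medians were 2 (18 cells) and 4.5 (240 cells). Cells with a Flt3 UMI had a median of 39 in KO (43 cells) and 5 in control (101 cells). Those without one had 5 (155 cells) and 4 (157 cells). At 5800 UMIs only 2 cells of either library held both Vwf and Flt3, while Vwf and Slamf1 stood together in 29 KO and 4 control cells.

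These groups of cells were defined from the data by a transcript, so what follows describes them. Among KO HSC-like cells, the 83 with a Vwf UMI carried 125 CPM of Slamf1 against 7.19 in the other 156, and 307.6 CPM of Mllt3 against 48.7. Fgd5, a marker of quiescent stem cells, stood at 60.7 and 5.53 CPM in them, and Cdkn1c at 67.3 and 9.96. Mt1 (407 and 26.5 CPM), Clu (186 and 3.87) and Nupr1 (197 and 7.19) were far higher in the cells with Vwf. Cd48 stood the other way at 15.8 and 154 CPM, as did Cd34 at 148 and 453, Cdk6 at 224 and 803 and Mki67 at 113.5 and 424.

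In control, the 30 cells with a Vwf UMI leaned the same way for most of these genes but not for Mt1. Slamf1 stood at 34.5 CPM in them and 8.52 in the other 237, Mllt3 at 244 and 82.0, Fgd5 at 45.9 and 15.6, and Cdkn1c at 97.6 and 27.6. Mt1, by contrast, stood at 11.5 and 9.40, both below its level in the KO cells without Vwf. Median depths were 9098.5 UMIs with and 11883 without Vwf in control and 7845 and 10483.5 in KO, so the cells with Vwf were the shallower ones in both.

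The same KO cells tended to hold the remaining Stat5 transcripts. Stat5a plus Stat5b summed to 99.0 CPM in KO cells with Vwf and 25.4 in those without, against 152 and 147 in control, and to 17.5 CPM in the 74 KO cells with Flt3 against 67.0 in the 165 without, with 149 and 145 in control. At 5800 UMIs, 27 of the 62 KO cells with Vwf also held a Stat5 UMI and 35 did not. The Stat5 transcripts left in KO HSC-like cells were thus more abundant among cells with Vwf and scarcer among cells with Flt3, a split that the control cells did not show.

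Split by Stat5 instead, the 70 KO cells with a UMI carried 260 CPM of Vwf against 59.3 in the 169 without, 88.7 of Slamf1 against 25.4, 111 of Socs2 against 31.8 and 57.7 of Cish against 15.9. Flt3 stood at 19.2 and 74.1 CPM in them, Cd48 at 42.9 and 139 and Mki67 at 194 and 382. Vwf in the 169 KO cells without a Stat5 UMI was still above the 12.8 CPM of all control HSC-like cells, and on the scale with 10 CPM added its log2 ratio without the Stat5-positive cells was 1.60 in place of 2.42. Slamf1 stood at 0.76 in place of 1.32, Socs2 at 0.39 in place of 0.98, and Mt1 at 2.26 in place of 2.92. Vwf, Slamf1 and Mt1 therefore stayed past 1.5-fold (0.58 on this scale) and Socs2 did not.

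Without thinning, the control split by Stat5 pointed the other way for several genes. Its 204 cells with a Stat5 UMI carried 9.68 CPM of Vwf against 30.9 in the 63 without, 9.37 of Slamf1 against 20.0, 15.3 of Socs2 against 60.0 and 24.1 of Cish against 58.2, with Mki67 at 335.5 and 90.9. Depth differed in opposite directions, with medians of 14078 and 7777 UMIs in control and 7984.5 and 9917 in KO. The part of depth in these levels was not tested. With all cells thinned to 5800 UMIs, Vwf was present in 8 of 134 control cells with a Stat5 UMI and 10 of 124 without. In KO it was present in 27 of 48 and 35 of 150. Medians of the G2 and mitosis list were 4 and 4 UMIs in control and 2 and 14.5 in KO. At that depth the 2 control groups were thus close in both measures. Where cells with a Stat5 UMI were left out of both libraries, the Vwf ratio was 0.76, that of Slamf1 was 0.24 and that of Socs2 was -0.74, so the higher Slamf1 and Socs2 of KO depend on which control cells they are set against.

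**Figure D5:**
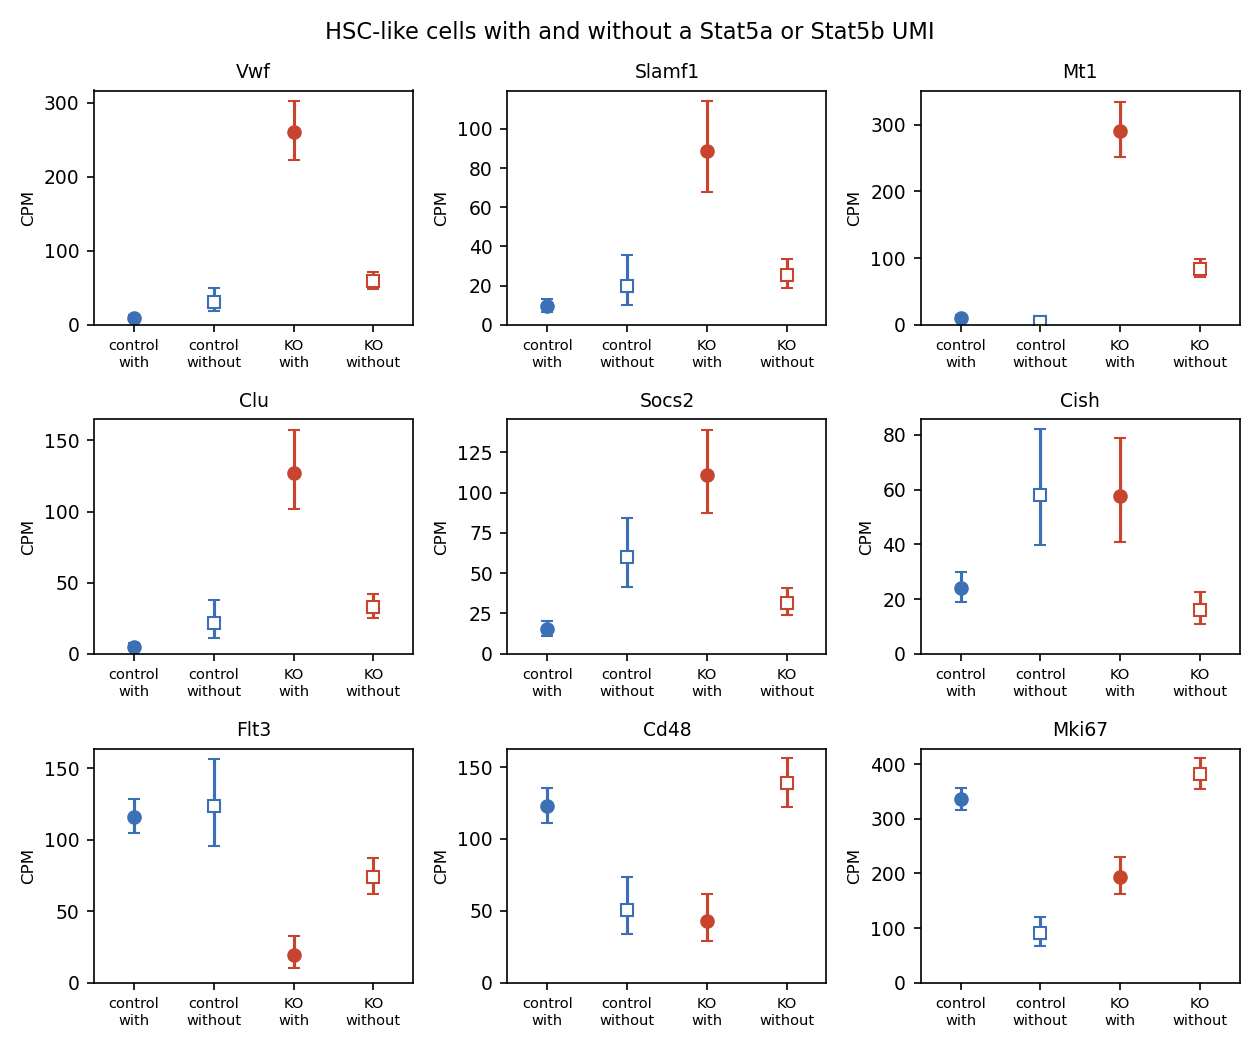
Levels in CPM of 9 genes in HSC-like cells with (filled circles) and without (open squares) a UMI of Stat5a or Stat5b, for control in blue and STAT5 KO in red, with exact Poisson 95% intervals. In KO, Vwf stands at 260 with and 59.3 without a Stat5 UMI, while in control it stands at 9.68 and 30.9.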

How the data were processed

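Mouse KLS cells of 2 genotypes were profiled by droplet sequencing. The deposited files hold UMI counts per gene and cell, made by the authors with Cell Ranger on GRCm38 (mm10) per the submitters' processing notes, software version 3.1.0 per the file headers; cell calling and strand settings were not given in the sources used here, so overlapping genes may share counts.

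Cells with at least 500 genes, at most 10% mitochondrial UMIs and a barcode absent from both MSC libraries were kept. Counts were summed over cells and divided by their total. Genes entered a comparison when their UMIs in HSC-like cells of the 2 libraries came to 100 or more, and 1.5-fold was read on log2(CPM + 10). Doublets were not removed: Scrublet's own threshold marked 0 and 1 cells and was not usable, so the highest scores, 7 control and 11 KO HSC-like cells, were left out as an alternative.

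The named genes are the 15 largest rises and 15 largest falls with a UMI in at least 5% of the HSC-like cells of the higher library, the 15 highest and 10 lowest against other KLS cells in both libraries, and listed genes; the 9 genes of the rule, hemoglobin, immunoglobulin and sex-linked marker genes were left out, and results for some genes are not reported here. Members and lists were chosen with earlier results of these data known. Alternatives were other cell filters, rules, pseudocounts, minimums, folds, doublet and depth handling, and TMM scaling (edgeR 4.0.16 in R 4.3.3). Python 3.11.15, numpy 2.4.6, scipy 1.17.1 and scanpy 1.11.5 were used. The calculation was tested on simulated data. Gene positions are from GENCODE for GRCm38, and promoters from RefSeq.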

Additional observations from a re-analysis of the deposited data

Results flagged for a closer look

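Slamf1 and Socs2 stood on opposite sides in HSC-like and in other KLS cells. The log2 ratio of KO over control for Slamf1 was 1.95 (1.41 to 2.50) in HSC-like cells and -0.45 (-0.64 to -0.26) in the other KLS cells. For Socs2 it was 1.27 (0.86 to 1.68) and -0.49 (-0.69 to -0.30). With 1 library per group each pair of intervals covers counting error only, and the difference between the 2 sets of cells was not tested.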

How the results depend on the processing

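The share of HSC-like cells, KO minus control, was -5.02 percentage points and moved to -3.35 with at most 5% mitochondrial UMIs, -10.8 with Dntt and Pf4 cells kept, -10.7 with 2 of 3 stem genes and -1.99 with the rule on thinned cells. The log2 ratio of Stat5a plus Stat5b was -1.65 and became -2.12, -2.40 and -1.24 under the last 3 of these and -1.15 among cells of 5000 to 15000 UMIs. The 60 higher genes became 127 with a pseudocount of 1 CPM, 131 with no UMI minimum, 24 with a minimum of 300, 13 at 2-fold, 144 among cells of 5000 to 15000 UMIs and 425 among cells without a Stat5 UMI in both libraries, where the UMI minimum was applied again to fewer cells. The 62 lower genes became 145 with a pseudocount of 1 CPM, 25 with a minimum of 300, 8 at 2-fold and 151 among cells without a Stat5 UMI in both libraries; over the same 7677 genes that comparison gave 762 higher and 421 lower. The 108 genes higher than in other KLS cells became 50 with Dntt and Pf4 cells kept and 53 with 2 of 3 stem genes. The stem cell median of 0.11 became -0.13 without KO cells holding a Stat5 UMI and -0.62 where such cells were left out of both libraries. The S phase median of -0.09 became 0.10 with 2 of 3 stem genes, 0.26 with the rule on thinned cells, 0.035 in the 5000 to 15000 UMI window and 0.37 without Stat5 UMIs in both. The G2 and mitosis median of 0.08 became -0.13 at 5% mitochondrial UMIs, 0.15 without the deepest 5% of cells, 0.16 with Dntt and Pf4 cells kept, -0.047 with the rule on thinned cells, 0.17 for means of single cells, 0.27 without KO cells holding a Stat5 UMI, 0.97 in the window and 2.27 without Stat5 UMIs in both. Without Stat5 UMIs in both, G1 genes stood at 0.27 in place of 0.11, immediate early genes at -0.70 in place of -0.01 and Socs2 at -0.74 in place of 0.98. The interferon median of -0.17 became -0.019 at 5% mitochondrial UMIs and 1.273e-04 with the rule on thinned cells. The cause of these moves was not tested, and the window and the comparison without Stat5 UMIs in both libraries were chosen after seeing the data. Over all alternatives, 444 values of named genes moved by no more than the half-width of their counting interval, 65 moved by more and 1, Socs2, turned. That interval was of the ratio with nothing added, while the values had CPM added. The measure is therefore lenient for genes with few UMIs. List medians were judged against the spread of ratios among the genes of the list, which is not counting error. By that measure 315 list medians stayed within the interval, 15 moved beyond it and 3 turned. No paired analysis was possible because each group had 1 library. Depth limits single cells: a thinned cell without a UMI of a gene may still express it.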
